A study of Mus musculus with 6 samples.

Results

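The mitochondrial respiratory chain passes electrons from nutrients to oxygen through 4 protein complexes of the inner mitochondrial membrane, and most of their subunits are encoded in the nucleus. Transcripts of 49 such nuclear genes were followed in the esophagus of mice with carcinogen-induced squamous disease, after treatment with DTA-1, an antibody that activates GITR, a costimulatory receptor of T cells, or with an isotype control antibody. The genes were chosen by symbol as subunits of complexes I to IV, leaving out ATP synthase, and all 49 were found among the 54232 gene IDs of each library and passed the filter on low counts that left 15763 genes. The rule uses no measured value, but it was set with earlier results of these data known, so the counts below describe the genes and are no independent test of them. All mice of both groups had started at 8 weeks of age, drunk 4-nitroquinoline 1-oxide (4-NQO, a carcinogen that produces esophageal squamous tumors) at 100 µg/ml for 16 weeks and then drunk plain water for 12 weeks. Over the last 2.5 weeks they received 10 µg of DTA-1 or of isotype antibody by intraperitoneal injection, 2 times a week. The esophagus was enriched for invading cells and polyA RNA was sequenced, with 3 libraries in each group, called isotype 1 to 3 and DTA-1 1 to 3 below. The sources used here do not give mouse strain or sex, nor whether libraries come from separate mice, and p-values reflect only how far these samples spread, part of which may be technical.

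Complex I takes electrons from NADH, complex II from succinate, complex III hands them to cytochrome c, and complex IV passes them to oxygen. Skeletal muscle fibers are rich in mitochondria, and the mouse esophagus is wrapped in striated muscle, so bulk RNA of this organ mixes the respiratory transcripts of muscle with those of squamous epithelium and other cells. 3 subunits of complex IV exist as pairs of genes: Cox6a2, Cox7a1 and Cox8b are the forms of striated muscle, and Cox7a1 and Cox8b are also known from brown fat, while Cox6a1, Cox7a2 and Cox8a are used in most other tissues. In bulk RNA, fewer cells of a type and less RNA per cell cannot be told apart.

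The libraries held 23147873 to 29065162 counts, and each of the 49 genes had at least 630 reads in every library. Levels are given as CPM, counts scaled to library size after correction by the trimmed mean of M-values (TMM), and fold changes as log2 of DTA-1 over isotype. The tissue was far from pure epithelium: 29 striated muscle markers took 8.63% to 15.2% of counts in isotype and 16.3% to 21.5% in DTA-1 libraries. The 21 squamous markers, basal and differentiated, were detected in every library. The libraries stood apart in other tissue too. Ucp1, the uncoupling protein that defines brown fat, was at 74.2 CPM in isotype 2 and 168 CPM in DTA-1 3, and at 0.0369 (1 read) to 6.7 CPM in the other 4. Cidea and Elovl3 of the brown fat list were also highest in isotype 2 and DTA-1 3. Dio2, Zic1 and Prdm16 did not follow: Dio2 was lowest in isotype 2 (14.8 CPM) and Zic1 highest in DTA-1 2 (28.7 CPM). The white fat list was highest in isotype 2 and DTA-1 3, with scores (mean log2 CPM) of 5.47 and 6.92 against 3.19 to 4.78 elsewhere. All 11 mitochondrially encoded subunits on the list, such as mt-Nd1 and mt-Co1, are listed at 0 in every library, so the mitochondrially encoded subunits are not analysed here.

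On average, respiratory subunit transcripts were more abundant in DTA-1 than in isotype libraries, but no gene passed edgeR's test. Of the 49 genes 47 had a positive fold change, where 47.1% of all genes tested did, and their median was 0.47 against -0.03 over all 15763 genes. By edgeR's quasi-likelihood test with Benjamini-Hochberg adjustment, 0 of 49 passed an adjusted p of 0.05 in either direction, the adjusted p ranging from 0.39 to 0.735, and the share over all genes was 0% higher and 0% lower. At an unadjusted p under 0.05 edgeR counted 21 of the 49 as higher and 0 as lower, where the shares over all genes were 5.21% higher and 7.52% lower. DESeq2 called 0 of the 49, against 0.267% called higher and 0.852% called lower over all genes, and limma-voom also called 0. In 22 of the 49 genes the 3 DTA-1 libraries all exceeded the 3 isotype libraries, which held for 8.6% of all genes tested. In 0 of the 49 did every DTA-1 library lie below every isotype library, against 9.38% of all genes. Scaling by library totals alone moved the median of all genes to -0.19, and the median of the 49 stood 0.51 above it, against 0.50 with TMM. The unadjusted count was then 3 (2.79% of all genes) and the count without overlap 8 (5.14%), and upper-quartile scaling gave an unadjusted count of 35 (8.38%).

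**Figure D1:**
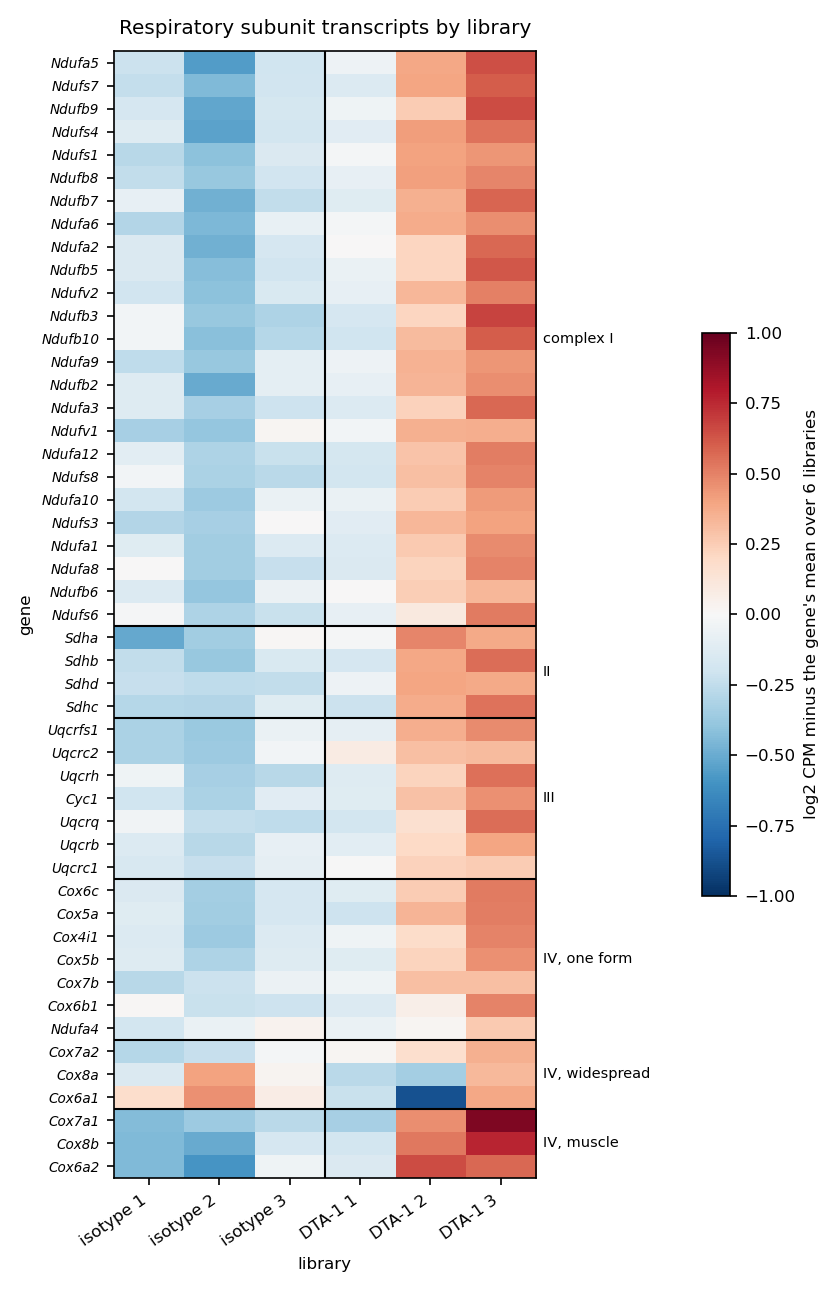
Heat map of log2 CPM minus the gene's mean over the 6 libraries, with 1 row for each of the 49 genes grouped by complex and 1 column per library. DTA-1 2 and DTA-1 3 are red in nearly every row, DTA-1 1 is close to the 3 isotype libraries, and Cox8a and Cox6a1 break the pattern.

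The higher levels were carried by DTA-1 2 and DTA-1 3. The mean log2 CPM of the 49 genes was 7.09, 6.94 and 7.14 in isotype 1, 2 and 3, and 7.17, 7.54 and 7.77 in DTA-1 1, 2 and 3. DTA-1 1 was thus close to isotype 3, while the other DTA-1 libraries were well above the isotype range. DTA-1 2 exceeded all 3 isotype libraries in 46 of the 49 genes and DTA-1 3 in 47, where 30.3% and 30.8% of all genes tested did so. DTA-1 1 exceeded them in 22, lay within their range in 25 and below it in 2, where 21.6% of all genes lay above. The DTA-1 libraries also varied more, the median SD of log2 CPM per gene being 0.146 in isotype and 0.311 in DTA-1 libraries. Without DTA-1 1 the median fold change was 0.63 and the unadjusted count 44 of 49, where 9.41% of all genes were higher at that level. edgeR then called 2 of the 49 genes higher, Cox7a1 (adjusted p = 0.0424) and Cox8b (0.0472), among 62 genes called higher (0.38%) and 539 called lower of 16303 tested. The unadjusted count was 22 without isotype 3 (9.78% of all genes) and 4 without isotype 1 (2.83%). It was 0 without isotype 2 (1.63%), 1 without DTA-1 2 (1.21%) and 0 without DTA-1 3 (2.51%). With fewer libraries more genes separate: the count without overlap was 34 without isotype 1 (14.1% of all genes), 36 without isotype 3 (20.6%) and 46 without DTA-1 1 (20.1%).

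The subunits of each complex varied together from library to library, and the 4 complexes shifted alike. Over the 25 complex I genes the median SD of log2 CPM over the 6 libraries was 0.351, and it was 0.091 once each gene was taken relative to the median of its complex in the same library. The same 2 values were 0.371 and 0.068 for the 4 genes of complex II, 0.305 and 0.097 for the 7 of complex III, and 0.308 and 0.151 for the 13 of complex IV. All 36 genes of complexes I to III varied less relative to their complex than on their own, as did 10 of the 13 of complex IV. The 3 exceptions were Ndufa4, Cox6a1 and Cox8a. The median deviation from each gene's mean in complexes I, II, III and IV was -0.386, -0.321, -0.315 and -0.311 in isotype 2. In DTA-1 3 it was 0.502, 0.463, 0.458 and 0.493. Each complex median includes the gene itself, and the same SDs were not computed for other genes. They therefore do not show variation particular to a complex.

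Complex I had positive fold changes in all 25 genes, with a median of 0.51 and a range from 0.38 to 0.67. Of these, 14 were higher at an unadjusted p under 0.05 and 14 did not overlap between the groups. Over all genes tested the shares were 5.21% and 8.6%, and these shares also stand beside such counts for each list below. Its core subunits include those that hold the flavin and the iron-sulfur clusters. The 6 core subunits among the 49 had a median of 0.49, against 0.51 for the 19 accessory subunits, which surround the core. Ndufv1, the subunit that binds NADH, had a fold change of 0.47 ± 0.21 (SE), Ndufs1, which carries iron-sulfur clusters, 0.56 ± 0.20 (SE), and Ndufs7, at the quinone end of the chain of clusters, 0.61 ± 0.22 (SE). The other core subunits, Ndufv2, Ndufs3 and Ndufs8, stood at 0.52 ± 0.21, 0.42 ± 0.19 and 0.43 ± 0.21. Of the Ndufs3 transcript 39.7% of 50-base windows also occur in transcripts of other genes, so its level is uncertain.

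Ndufa5, an accessory subunit of the arm that reaches into the matrix, had the highest fold change of complex I. It stood at 109, 86.5 and 111 CPM in isotype 1, 2 and 3, against 122, 167 and 198 CPM in DTA-1 1, 2 and 3. All DTA-1 libraries exceeded all isotype libraries, with a fold change of 0.67 ± 0.22 (SE, edgeR adjusted p = 0.39). Ndufs6, a zinc-binding subunit of the same arm, had the lowest fold change of complex I. Its level was 70.8, 57.8 and 61.1 CPM in isotype and 67.5, 76.5 and 102 CPM in DTA-1 libraries. The groups overlapped, since DTA-1 1 was below isotype 1, and the fold change was 0.38 ± 0.19 (SE, edgeR adjusted p = 0.423). Ndufa2, which has a thioredoxin-like fold, had the highest level per kilobase of exon in complex I. It was measured at 105, 83.3 and 103 CPM in isotype and 116, 134 and 173 CPM in DTA-1 libraries, with no overlap and a fold change of 0.54 ± 0.20 (SE, edgeR adjusted p = 0.39).

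Complex II, which is also the succinate dehydrogenase of the citric acid cycle and the one complex with no mitochondrially encoded subunit, had a median of 0.53 over its 4 genes, all positive. Sdha, the flavoprotein that oxidizes succinate, stood at 425, 477 and 611 CPM in isotype 1, 2 and 3, against 601, 854 and 789 CPM in DTA-1 1, 2 and 3. Isotype 3 was above DTA-1 1, so the groups overlapped, and the fold change was 0.57 ± 0.25 (SE, edgeR adjusted p = 0.397). Sdhb, the iron-sulfur subunit, had 0.55 ± 0.22 and overlapped as well. The membrane anchor Sdhc was at 161, 159.7 and 179 CPM in isotype and 168, 252 and 285 CPM in DTA-1 libraries, overlapping, with a fold change of 0.50 ± 0.23 (SE, edgeR adjusted p = 0.4). Sdhd, the other anchor, was nearly even over the isotype libraries at 175, 172 and 173 CPM, while the DTA-1 libraries had 199, 271 and 268 CPM, all higher. Its fold change was 0.50 ± 0.18 (SE, edgeR adjusted p = 0.39), and it was 1 of the 2 genes of complex II at an unadjusted p under 0.05.

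Complex III had a median of 0.44 over 7 genes, all positive, with 2 of 7 at an unadjusted p under 0.05 and 2 without overlap. Uqcrfs1, the Rieske iron-sulfur protein, had the highest fold change and the highest level per kilobase of exon of the complex, with 233, 225 and 278 CPM in isotype and 274, 375 and 404 CPM in DTA-1 libraries. DTA-1 1 was below isotype 3, and the fold change was 0.52 ± 0.21 (SE, edgeR adjusted p = 0.391). Cyc1, the cytochrome c1 subunit, had 0.44 ± 0.21. The core protein Uqcrc1 had the lowest fold change, yet its groups did not overlap, at 459, 436 and 483 CPM in isotype and 512, 601 and 612 CPM in DTA-1 libraries, with 0.32 ± 0.19 (SE, edgeR adjusted p = 0.459). Its partner Uqcrc2 had 0.47 ± 0.18 and did not overlap either, though 24.8% of its windows are shared with another gene. Without DTA-1 3 the median of complex III was 0.28.

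Complex IV had the lowest median of the complexes, 0.39, and the widest range, from -0.39 to 0.80. Differences between complexes were not tested. Its 13 genes fall into 7 with no muscle counterpart on the list and 3 isoform pairs. Of the 7, none was at an unadjusted p under 0.05, 4 did not overlap between the groups, and the median was 0.39. Cox4i1 and Cox5a, which join the catalytic core early in assembly, had 0.44 ± 0.22 and 0.45 ± 0.22, both levels being uncertain since 14.7% and 32.0% of their windows are shared with other genes. Ndufa4, which was named as a complex I subunit and is now known to belong to complex IV, had the lowest fold change of the 7, 0.15 ± 0.19, and it was counted here.

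**Figure D2:**
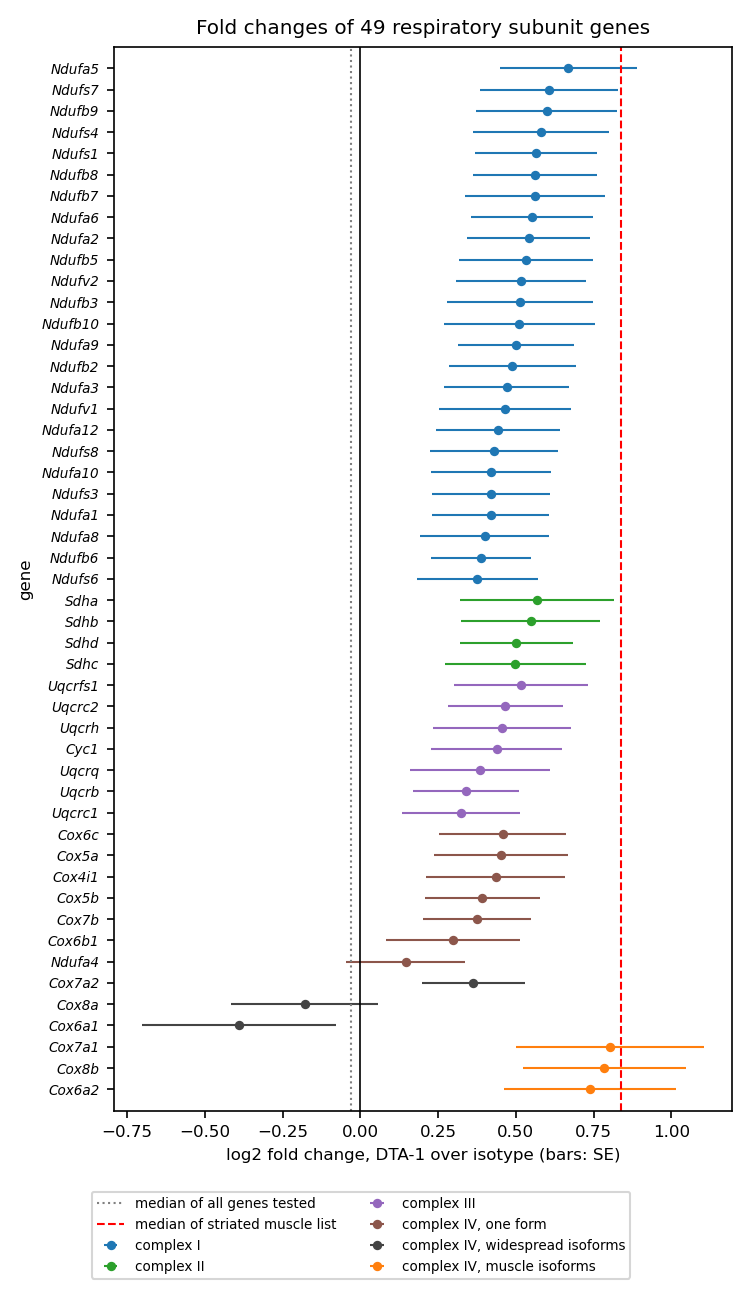
Log2 fold change of DTA-1 over isotype for each of the 49 genes (points) with its standard error (bars), colored by complex and isoform class. The muscle isoforms lie nearest to the striated muscle median of 0.84 (dashed), the other subunits lie between that and the median of all genes at -0.03 (dotted), and Cox6a1 and Cox8a lie below 0.

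In each isoform pair the muscle form had the higher fold change, though both Cox7a1 and Cox7a2 were positive. The 3 muscle isoforms had the 3 highest fold changes of the 49 genes, and 2 of the 3 widespread isoforms were the 2 negative ones. All 3 muscle isoforms were at an unadjusted p under 0.05 and 0 of 3 passed the adjustment. Their genes lie on mouse chromosome 7 (GRCm38): Cox6a2 at 128205435 to 128206387, Cox7a1 at 30184144 to 30186078 and Cox8b at 140898945 to 140900446. The widespread forms lie elsewhere, Cox6a1 on chromosome 5 at 115345642 to 115348981, Cox7a2 on chromosome 9 at 79755361 to 79759878 and Cox8a on chromosome 19 at 7215153 to 7217616. Chromosome 7 is not particular to the muscle forms, since Cox6b1, Ndufa3 and Uqcrc2 of the 49 genes also lie there.

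The bases upstream of these genes differed in composition. RefSeq promoters (GRCm38.p6) were matched for 38 of the 49 genes, Cox6a2 not among them. In the 250 bases before the start, the muscle isoforms Cox7a1 and Cox8b held 4 and 1 CpG dinucleotides, below all 36 other matched genes, which held 5 to 28 with a median of 14, where the median of all 32851 promoters was 6. The sequences of 2 pairs are shown for that contrast, 5′ to 3′ on the strand of the gene, with each CpG in capitals.
Cox7a1, chr7:30183921-30184170, plus strand: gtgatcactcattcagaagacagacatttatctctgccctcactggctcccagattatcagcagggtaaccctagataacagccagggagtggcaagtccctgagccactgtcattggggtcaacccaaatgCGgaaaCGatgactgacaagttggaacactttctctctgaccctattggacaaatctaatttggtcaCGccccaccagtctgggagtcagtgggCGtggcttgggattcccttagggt
Cox7a2, chr9:79759854-79760103, minus strand: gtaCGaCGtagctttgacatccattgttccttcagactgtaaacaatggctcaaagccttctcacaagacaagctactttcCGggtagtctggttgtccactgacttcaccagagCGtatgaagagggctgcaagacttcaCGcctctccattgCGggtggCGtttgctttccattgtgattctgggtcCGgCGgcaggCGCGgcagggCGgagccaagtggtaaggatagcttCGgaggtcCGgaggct
Cox8b, chr7:140900447-140900696, minus strand: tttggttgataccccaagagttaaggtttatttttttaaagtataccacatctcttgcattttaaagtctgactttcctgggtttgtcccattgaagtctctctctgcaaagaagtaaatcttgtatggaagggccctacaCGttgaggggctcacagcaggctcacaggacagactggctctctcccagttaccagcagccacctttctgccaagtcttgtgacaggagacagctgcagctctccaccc
Cox8a, chr19:7217617-7217866, minus strand: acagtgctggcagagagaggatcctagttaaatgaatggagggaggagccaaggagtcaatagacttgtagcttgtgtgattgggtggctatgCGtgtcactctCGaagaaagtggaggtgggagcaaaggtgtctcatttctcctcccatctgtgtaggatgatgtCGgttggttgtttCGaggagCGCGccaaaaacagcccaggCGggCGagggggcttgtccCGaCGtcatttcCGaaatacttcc
In these sequences the widespread forms Cox7a2 and Cox8a hold 14 and 11 CpG. Motifs of factors known at respiratory genes were searched on both strands of the same windows. The ETS motif CCGGAAG was present in 7 of the 38 (18.4%) and in 6.91% of all promoters, and the NRF1 core GCATGCGC in 4 (10.5%) against 2.26%. The ERR motif TNAAGGTCA, the YY1 motif AAGATGGC and the MEF2 motif were in 0 of the 38, against 374 of the 32851 promoters, 1.56% and 2.92%. The E-box CANNTG was in 21 of the 38 (55.3%) against 66.2%, and the GC-box GGGCGGG in 9 (23.7%) against 23.4%. These matches describe letters in a short window and are no measure of binding.

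Cox6a2 stood at 251, 226 and 331 CPM in isotype 1, 2 and 3, against 308, 535 and 506 CPM in DTA-1 1, 2 and 3. DTA-1 2 and 3 were the highest, and DTA-1 1 lay below isotype 3, so the groups overlapped. The fold change was 0.74 ± 0.28 (SE, edgeR adjusted p = 0.39), and 70 bases of its exons overlap Itgad on the opposite strand. Cox6a1, its widespread counterpart, was lower in DTA-1 1 and 2 than in any isotype library, at 115, 139 and 107 CPM in isotype and 86.9, 55.5 and 133 CPM in DTA-1 libraries. The lowest value was in DTA-1 2, which had the highest Cox6a2, and the fold change was -0.39 ± 0.31 (SE, edgeR adjusted p = 0.572). It was -0.13 without DTA-1 2, -0.25 without isotype 2 and -0.75 without DTA-1 3.

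Cox8b was measured at 96.2, 91.7 and 116 CPM in isotype and 115, 188 and 221 CPM in DTA-1 libraries. DTA-1 1 was within the isotype range and the other 2 were above it, with a fold change of 0.79 ± 0.26 (SE, edgeR adjusted p = 0.39). Cox8a was at 75.5, 110.1 and 84.8 CPM in isotype and 69.1, 65.8 and 104 CPM in DTA-1 libraries. Cox8a and Cox6a1 both had their highest values in isotype 2 and DTA-1 3, the 2 libraries highest in Ucp1, white fat and smooth muscle transcripts, and both were lowest in DTA-1 2. The smooth muscle score was 5.68, 8.74 and 8.30 in isotype 1, 2 and 3 and 7.57, 5.96 and 8.99 in DTA-1 1, 2 and 3, from 0.123% to 0.974% of counts. The part of these tissues in the isoform levels was not tested. The fold change was -0.18 ± 0.24 (SE, edgeR adjusted p = 0.735), and it was 0.01 without isotype 2, -0.28 without isotype 1, -0.09 without DTA-1 1, -0.06 without DTA-1 2 and -0.42 without DTA-1 3.

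Cox7a1 was even over isotype 1, 2, 3 and DTA-1 1, at 40.1, 42.1 and 44.9 and 43.2 CPM, and stood at 75.0 CPM in DTA-1 2 and 104 CPM in DTA-1 3. Its fold change was 0.80 ± 0.30 (SE, edgeR adjusted p = 0.39), and it was 0.48 without DTA-1 3. Cox7a1 was highest in DTA-1 3, as Cox8b was, while Cox6a2 was highest in DTA-1 2, and DTA-1 3 had the highest Ucp1. In isotype 2, where Ucp1 was at 74.2 CPM, Cox7a1 lay between isotype 1 and 3, and Cox8b and Cox6a2 were at their lowest of the 6 libraries. Unlike the other widespread forms, Cox7a2 was higher in every DTA-1 library, at 113, 117 and 135 CPM in isotype and 139, 155 and 176 CPM in DTA-1 libraries, with a fold change of 0.36 ± 0.16 (SE, edgeR adjusted p = 0.4).

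Set against each other per kilobase of exon, the muscle forms took a larger share of 2 pairs in every DTA-1 library. Cox6a2 made up 69.4%, 62.7% and 76.1% of the Cox6a2 and Cox6a1 level in isotype 1, 2 and 3, and 78.5%, 90.9% and 79.7% in DTA-1 1, 2 and 3. The means were 69.4% ± 6.73 and 83.1% ± 6.8 (SD, n = 3 each). Cox8b made up 68.7%, 58.9% and 70.2% of its pair in isotype and 74.1%, 83.1% and 78.5% in DTA-1 libraries, with means of 65.9% ± 6.14 and 78.6% ± 4.49. The groups did not overlap for either pair, DTA-1 1 included. Cox7a1 made up 38.6%, 38.9% and 37.0% of its pair in isotype and 35.4%, 46.1% and 51.0% in DTA-1 libraries, with means of 38.1% ± 1.03 and 44.2% ± 7.98. Here DTA-1 1 was the lowest of the 6 libraries, and the groups overlapped. The difference of the Cox7a1 means was 6.04 percentage points, 2.63 without DTA-1 3 and 10.4 without DTA-1 1. An exact two-sided permutation test of the difference gave p = 0.1 for Cox6a2, 0.4 for Cox7a1 and 0.1 for Cox8b (0.15, 0.4 and 0.15 adjusted over the 3), where 0.1 is the smallest p that 3 libraries against 3 allow. Of the Cox6a1 transcript, 12.3% of 50-base windows also occur in a transcript of another gene, so its level, and the share built on it, is uncertain.

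**Figure D3:**
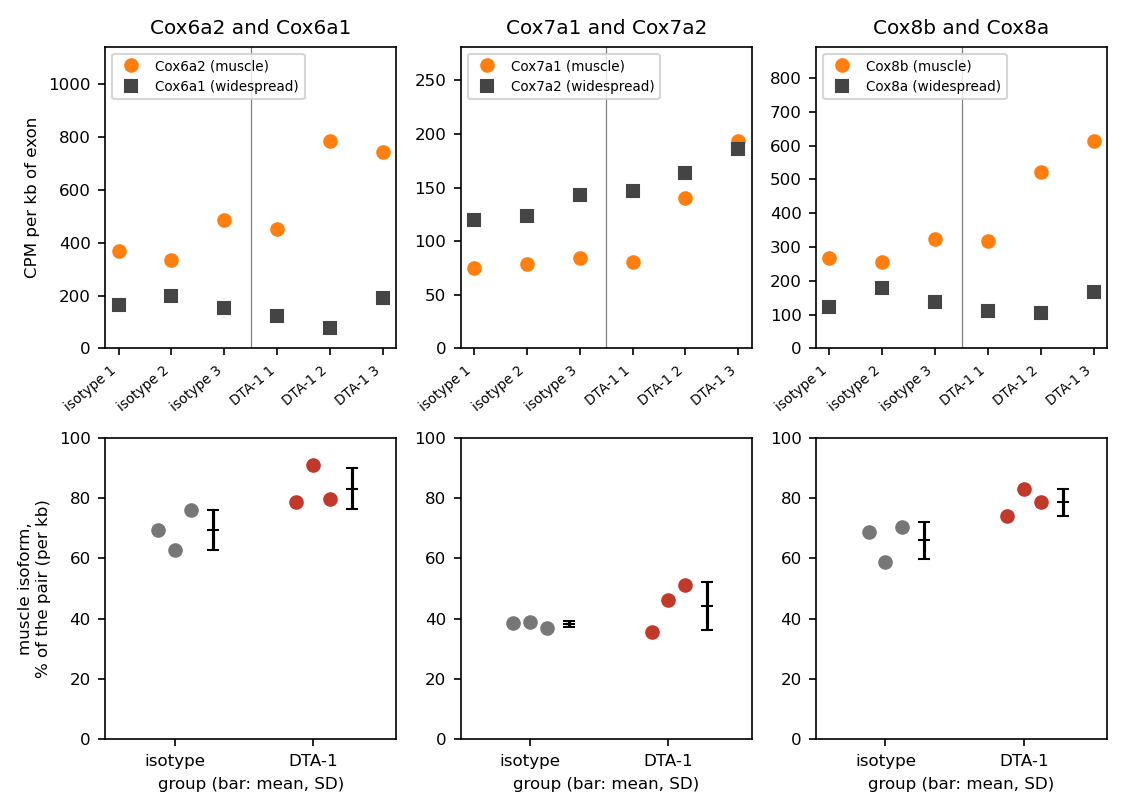
Top: level per kilobase of exon (CPM per kb) of each muscle isoform and its widespread counterpart in the 6 libraries. Bottom: the muscle form as a percent of the pair per library (points) with the group mean and SD (bars). The DTA-1 libraries lie above the isotype libraries for Cox6a2 and Cox8b and overlap them for Cox7a1.

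Per kilobase of exon, Cox6a2 had the highest isotype mean of all 49 genes, 396 ± 80.2 CPM per kb, followed by Cox6b1 with 331 and Cox4i1 with 326. Divided by the longest protein-coding transcript in place of all annotated exons, Cox4i1 (660) and Ndufa4 (654) came first, followed by Cox6a2. Ndufb2 was the lowest under both, at 5.10 and 6.56 CPM per kb. The level of a subunit therefore depends on the length used, and the isoform shares less so: by the longest transcript Cox6a2 made up 64.9% and 80.0% of its pair in isotype and DTA-1 libraries, Cox8b 63.2% and 76.5% and Cox7a1 32.2% and 38.0%.

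Transcripts of other tissue varied along with these genes. The striated muscle list had a median fold change of 0.84, with 27 of 29 genes positive and 0 passing the adjusted p. The 2 negative genes were myosins, Myh2 (-0.43 ± 0.65, SE) and Myh7 (-2.73 ± 1.43), and the highest was another myosin, Myh4 (2.01 ± 0.94). Myh7 stood at 86.6 CPM in isotype 2 and at most 6.12 CPM elsewhere. Mb, the oxygen-binding protein of muscle, stood at 2233, 1589 and 3124 CPM in isotype and 3425, 4715 and 4912 CPM in DTA-1 libraries, with no overlap. Ckm, the creatine kinase of muscle, was at 3233, 3094 and 7300 CPM in isotype and 7509, 12000 and 6384 CPM in DTA-1 libraries, and Acta1, skeletal actin, at 28160, 17700 and 36830 against 39380, 54570 and 44350 CPM. The muscle and respiratory scores ordered the libraries alike except for DTA-1 2 and DTA-1 3, which traded the top places. The striated muscle score (mean log2 CPM) was 9.92, 9.88 and 10.4 in isotype 1, 2 and 3 and 10.7, 11.03 and 10.8 in DTA-1 1, 2 and 3. DTA-1 1 thus had a higher muscle score than any isotype library and was close to DTA-1 3. The subunit scores of DTA-1 1 and DTA-1 3 were 7.17 and 7.77. Single muscle genes moved in both directions between these libraries. Ttn stood at 3610 CPM in DTA-1 1 and 5949 CPM in DTA-1 3, and Tpm2 at 8491 and 12820 CPM. Actn3 stood at 4129 and 978 CPM, and Atp2a1 at 10370 and 5965 CPM. The part of these shifts in the subunit levels was not tested. With the muscle score as a covariate in edgeR the median of the 49 genes was 0.19 (adjusted p of 1 for each of the 49), with 44 positive. The medians of complexes I, II, III and IV were then 0.23, 0.12, 0.10 and 0.17, and Cox6a2 stood at -0.16.

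Squamous transcripts ran the other way. The score of the 12 differentiated squamous genes was 8.98, 9.47 and 9.49 in isotype and 8.73, 7.31 and 7.47 in DTA-1 libraries, and all 12 fold changes were negative (median -1.42). The 9 basal genes were all negative too, with a median of -0.95. With the squamous score as a covariate the median of the 49 genes was -0.06, and 17 remained positive. The groups and these scores are close to aligned over 6 libraries, so the part of the tissue mix and that of the antibody cannot be told apart. Without isotype 2 and DTA-1 3, the 2 libraries with the most fat transcripts, the median was 0.27. The unadjusted count was 0 (0.714% of all genes) and the count without overlap 24 (15.4%). In the heart list, Myh6 and Nppa had at most 2 and 5 reads in any library, while 7 of its 9 genes passed the filter and had a median of 0.37. Nppb, Myl7, Ryr2 and Tnni3 had at most 225, 100, 232 and 37 reads in any library. Their fold changes were 0.39, -0.69, 0.04 and -0.73. The others include genes that striated muscle can also express: mean levels in isotype and DTA-1 libraries were 438 and 947 CPM for Actc1, 158 and 203 CPM for Tnnt2 and 20.2 and 31.5 CPM for Myl4.

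**Figure D4:**
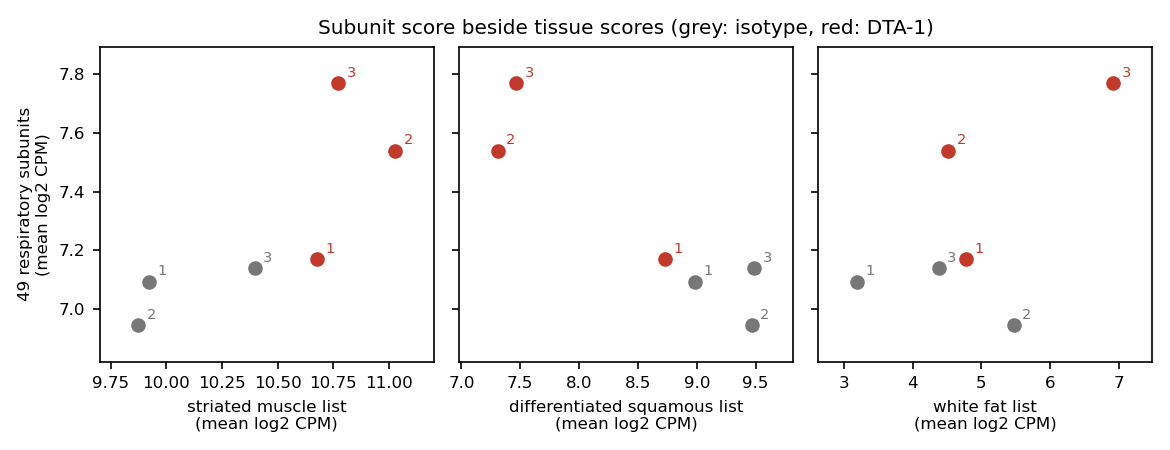
Mean log2 CPM of the 49 genes (vertical axis) against the mean log2 CPM of the striated muscle, differentiated squamous and white fat lists (horizontal axes), 1 numbered point per library, isotype in grey and DTA-1 in red. DTA-1 1 sits close to the isotype libraries at 7.17 on the vertical axis, and its muscle score, a mean over genes, is 10.7 and above theirs.

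Other genes of oxidative phosphorylation, listed by function, were also higher on average. Of 19 tested subunits of complexes I to IV that are not among the 49, or of cytochrome c, 17 were positive, with a median of 0.43, 7 at an unadjusted p under 0.05 and 0 adjusted. Cycs, cytochrome c, had the highest fold change, at 10.3, 8.6 and 8.55 CPM in isotype and 12.3, 16.4 and 17.8 CPM in DTA-1 libraries (0.76 ± 0.22, adjusted p = 0.39 in edgeR). Its level is uncertain, since 28.5% of its windows are shared with 76 other genes. Cox4i2, an isoform of Cox4i1 with few reads, had the lowest, -0.36 ± 0.50, adjusted p = 0.745 in edgeR. Of 14 ATP synthase genes 12 were positive, with a median of 0.42. Atp5c1, the gamma subunit, had 0.58 ± 0.23, adjusted p = 0.39 in edgeR, the catalytic Atp5b, which had the highest level, 0.50 ± 0.27, adjusted p = 0.431 in edgeR, and Atp5l -0.70 ± 0.38, adjusted p = 0.43 in edgeR, at a low and uncertain level, since 84.8% of its windows are shared.

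Genes that build the complexes or the organelle had smaller medians. Of 41 tested assembly factors 38 were positive, with a median of 0.28 and 5 at an unadjusted p under 0.05. Their fold changes ran from -0.24 for Pet100, a complex IV assembly factor, to 0.62 for Ndufaf5, a complex I assembly factor, and Coa5, the most abundant, had 0.32. The 18 genes of the mitochondrial outer membrane, import and dynamics had a median of 0.30, with 16 positive, 4 at an unadjusted p under 0.05 and 9 without overlap, from -0.09 for the import pore Tomm40 to 0.62 for the fusion gene Mfn2, and the abundant channel Vdac1 stood at 0.59. The score of these 18 genes was 6.55, 6.43 and 6.65 in isotype and 6.80, 6.88 and 6.83 in DTA-1 libraries, DTA-1 1 included above the isotype range. Of 12 regulators of mitochondrial biogenesis 10 were positive, with a median of 0.28 and none at an unadjusted p under 0.05. Nrf1 was at -0.24 and the muscle-rich Esrrg and Perm1 at 0.67 and 0.63. Ppargc1a, the PGC-1alpha coactivator, was named after its values were seen: it stood at 13.1, 27.99 and 58.3 CPM in isotype and 51.3, 53.8 and 45.6 CPM in DTA-1 libraries. No gene of these lists passed the adjusted p in edgeR, and differences between the lists were not tested.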

How the data were processed

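Polyadenylated RNA of 6 esophagus libraries, 3 per group as the labels give them, was sequenced, and the authors deposited raw read counts per Ensembl gene ID, whole numbers with no normalization. The mm10 build, HTSeq 0.6.1p1, STAR, cutadapt 1.13 and DESeq2 1.14.1 are named per the submitters' processing notes. Whether reads were counted by strand is not given in the sources used here. Gene IDs were matched to symbols and coordinates through GENCODE for GRCm38. The 37 genes of the mitochondrial chromosome have 0 reads in all libraries, and 1 listed symbol, Atp5o, matched 2 gene IDs and was left out.

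Counts were filtered (edgeR 4.0.16 filterByExpr, minimum count 10 and minimum total 15), scaled by TMM and tested with edgeR's robust quasi-likelihood test of treatment in R 4.3.3, with Benjamini-Hochberg adjustment over all 15763 genes and a threshold of 0.05. Fold changes are those of the edgeR fit, and the log2 CPM behind scores and SDs uses a prior count of 2. Alternatives were limma-voom (limma 3.58.1), DESeq2 1.42.0, other scalings and filters, each library left out, the replicate number as a block, and muscle or squamous scores as covariates. Of these steps only the edgeR test was run on simulated data, with independent changes in randomly chosen genes. List medians, isoform shares and covariate fits were not covered. Every subunit gene had 630 or more reads, and counting error was not computed beside the spread between libraries. The exact permutation test of the isoform shares was added after seeing the data. A score is the mean log2 CPM of a list. Per-kilobase levels divide CPM by the length of all annotated exons of a gene. Promoter windows are the 250 bases before each RefSeq start.

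The members and lists were chosen with earlier results of these data known. Values in every library were given for the isoform pairs and, in each complex, for the genes with the highest and lowest fold change and the highest level per kilobase, and for Mb, Ckm, Acta1 and Ucp1. In each other list of the pathway the genes with the highest and lowest fold change and the highest level were named, except 1 gene that is not reported here. No 2 libraries were near duplicates (the smallest median chi-square per gene between libraries was 3.98).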

Additional observations from a re-analysis of the deposited data

How the results depend on the processing

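Of 198 recomputed medians, shares and counts 165 were labelled unchanged, as were 469 of 494 fold changes of single genes, which were followed for 26 of the 49. A count was unchanged within a ratio of 1.5, and other values within a set tolerance. The label therefore does not mean that every direction or call held. Where values changed, the cause was not tested. The count of 21 genes at an unadjusted p under 0.05 in edgeR became 3 with library totals (2.79% of all genes) and 35 with upper-quartile scaling (8.38%). It was 0 with the muscle score (0.666%) or the squamous score (0.66%) as a covariate. The count of 22 without overlap became 8 with library totals (5.14% of all genes), under which Ndufa4 stood at -0.011. With the muscle score as a covariate the medians were 0.19 for all 49 genes and 0.23, 0.12, 0.10 and 0.17 for complexes I, II, III and IV. Cox6a1 (0.36), Cox8a (0.16), Cox6a2 (-0.16), Ndufa4 (-0.015), Ndufs3 (-0.12), Ndufv1 (-0.12) and Sdha (-0.15) then changed sign. With the squamous score the same medians were -0.061, -0.034, -0.020, -0.067 and -0.093, and the sign changed for 30 of the 49 genes, among those followed for Cox5a (-0.19), Cox6a2 (-0.08), Cox7a1 (-0.29), Cox8b (-0.10), Cyc1 (-0.079), Ndufa4 (-0.09), Ndufs3 (-0.10), Ndufs6 (-0.034), Ndufs7 (-0.061), Ndufs8 (-0.14), Ndufv2 (-0.003), Sdhb (-0.12), Sdhc (-0.19) and Uqcrfs1 (-0.028). With 1 library left out, the genes called higher by edgeR numbered 0 to 2 (0% to 0.38% of all genes over these settings). The unadjusted count was 0 to 44 (1.21% to 9.78%) and the count without overlap 22 to 46 (9.56% to 20.6%). The median of all 49 ran from 0.32 to 0.63, and Cox8a from -0.417 without DTA-1 3 to 0.009 without isotype 2. Replicate numbers are shared by the groups, and same-numbered libraries did not deviate together (correlations of 0.018, -0.331 and -0.086). With 3 libraries per group and tissue that differs between them, these correlations cannot show whether same-numbered libraries were paired. With the replicate block the unadjusted count was 4 (3% of all genes). Leaving out isotype 3 and DTA-1 1, or isotype 2 and DTA-1 3, and dividing by the longest transcript, were chosen after seeing the data. Without isotype 3 and DTA-1 1 the unadjusted count was 42 (13.7% of all genes) and the count without overlap 47 (29.9%). The medians of all 49 and of complexes I, II, III and IV were then 0.68, 0.731, 0.79, 0.601 and 0.58. Without isotype 2 and DTA-1 3 the unadjusted count was 0 (0.714% of all genes), and the medians of complexes I, II, III and IV were 0.27, 0.398, 0.26 and 0.251.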

Other observations

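Some subunit genes share sequence with other transcripts, of an overlapping neighbour or of a gene elsewhere, which the counting could have split or dropped. The 2 cases were not separated. Of the 49 genes, 12 share more than 10% of their 50-base windows with transcripts of other genes, led by Uqcrb (43.4%, with 5 genes), Ndufs3 (39.7%), Ndufb6 (34.1%) and Cox5a (32.0%). Outside the 49, Atp5l shares 84.8% of its windows and stood at 2.58 CPM in isotype libraries, and Cox7c shares 27.9% and stood at 2.79 CPM, so levels of these genes are uncertain. Of the 49 genes, 15 overlap an exon of a gene on the opposite strand and 3 one on the same strand.

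Other cell type lists differed between libraries as well, and no gene of them passed the adjusted p in edgeR. The 8 T cell genes were all negative, with a median of -0.85, and the 5 B cell genes all positive, with a median of 2.70. Both lists were at low levels, with group means of at most 1.75 CPM. Of 6 macrophage genes 2 were positive (median -0.23), the 5 endothelial genes had a median of 0.34, the 9 smooth muscle genes 0.00 (with the spread between libraries given above), the 6 tested brown fat genes 0.78 and the 7 tested white fat genes 1.17. The 5 red cell genes had a median of 3.15, carried by DTA-1 2, whose score was 8.51 against 3.497 to 4.30 in the others. The part of these cells in the subunit levels was not tested.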
